A study of Mus musculus with 6 samples.

Results

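The elastic fibre genes studied here encode the core protein of elastic fibres, the microfibril proteins around it, the fibulins that join them and the enzymes that cross-link the fibre. Members were all probe sets to which the platform annotation gives a single gene symbol equal to a listed gene. Of 10 listed genes, 9 had such probe sets, 19 in all among 45037 probe sets on the array, and Fbn1 was not analysed here. After a filter on dim signals 17 of the 19 were tested. One probe set per gene, the brightest, stood for each of the 9 genes among 13464 genes tested, all 9 passing the filter.

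An elastic fibre is built from tropoelastin, a soluble protein that cells secrete and that lysyl oxidases cross-link into an insoluble core. Fibrillin microfibrils form the scaffold on which this core is laid down, and fibulins bring tropoelastin, microfibrils and lysyl oxidases together. In the bladder wall such fibres let the tissue stretch during filling and recoil on emptying, and both smooth muscle cells and fibroblasts can make them.

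Male FVB/N pups of postnatal day 2 gave the sorted bladder cells, with 3 arrays for each of 2 populations. All mice were bred to carry both transgenes, EGFP driven by the SMGA promoter (smooth muscle gamma actin, gene Actg2) and EYFP driven by the SMAA promoter (smooth muscle alpha actin, gene Acta2). Cells with EGFP and no EYFP are called single-positive here and cells with EGFP and EYFP double-positive. Both groups were therefore sorted as EGFP-positive, by transgene fluorescence after enzymatic digestion, and the labels place both in the detrusor muscle. The purity of the sorted cells was not tested. The labels state that samples were not pooled and do not tie the 3 samples of a group to different animals, so the p-values describe a spread that may be technical.

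Each array gave 1 linear signal per probe set in arbitrary units, and a fold change sets double-positive against single-positive arrays on the scale of log2(signal + 25.042). Median signal per array lay between 147 and 199.8, and the correlation of log2 signals between arrays of a group was 0.935 to 0.956. The sort read transgene fluorescence. No Acta2 probe set passed as higher in the double-positive arrays, and 1 of 3 passed as lower. Directions below therefore refer to arrays as labelled. Actg2, the gene behind the reporter that both groups share, was lower in the double-positive arrays (-2.54 on the log2 scale, SE 0.22, adjusted p = 0.000246 in limma). Of 11 smooth muscle markers tested 9 were lower in the double-positive arrays, and their summed signal ranged from 293452 to 377107 in single-positive and from 105756 to 147724 in double-positive arrays. Most of the double-positive sum came from Acta2, at 58281, 71648 and 49474, and Mylk, at 28826, 35701 and 41859. The markers that fell included Synm, Cnn1, Lmod1 and Des, with log2 fold changes of -4.54, -4.25, -3.36 and -3.26. In sorted bulk samples fewer cells of a type and less RNA per cell cannot be told apart.

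The fibulin family holds both the member with the smallest p, Fbln5, and the related gene with the smallest p among those higher in the double-positive arrays, Efemp1. The sequences just upstream of 4 fibulin genes are therefore shown, as the 250 bases before an annotated start in the RefSeq promoter table (build GRCm38.p6), read 5′ to 3′ on the gene's strand. Capitals mark a GC box, searched as GGGCGG on both strands (CCGCCC on the other).
Fbln1, chr15:85205758-85206007 (+ strand): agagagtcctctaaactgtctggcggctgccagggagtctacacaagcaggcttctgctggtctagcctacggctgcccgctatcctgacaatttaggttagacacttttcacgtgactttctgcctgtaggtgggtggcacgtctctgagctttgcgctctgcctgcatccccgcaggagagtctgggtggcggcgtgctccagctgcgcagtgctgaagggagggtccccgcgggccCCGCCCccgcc
Fbln2, chr6:91212514-91212763 (+ strand): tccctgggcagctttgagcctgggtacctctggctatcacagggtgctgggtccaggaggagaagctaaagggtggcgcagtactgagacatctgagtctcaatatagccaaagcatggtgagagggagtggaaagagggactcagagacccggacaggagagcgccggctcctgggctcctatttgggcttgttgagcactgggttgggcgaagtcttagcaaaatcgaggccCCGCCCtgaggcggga
Fbln5, chr12:101819120-101819369 (- strand): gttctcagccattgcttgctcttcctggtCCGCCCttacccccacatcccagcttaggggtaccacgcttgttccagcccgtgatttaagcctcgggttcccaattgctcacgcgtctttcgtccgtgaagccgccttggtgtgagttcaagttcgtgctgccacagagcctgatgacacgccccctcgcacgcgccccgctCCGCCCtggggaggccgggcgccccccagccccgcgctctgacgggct
Efemp1, chr11:28852955-28853204 (+ strand): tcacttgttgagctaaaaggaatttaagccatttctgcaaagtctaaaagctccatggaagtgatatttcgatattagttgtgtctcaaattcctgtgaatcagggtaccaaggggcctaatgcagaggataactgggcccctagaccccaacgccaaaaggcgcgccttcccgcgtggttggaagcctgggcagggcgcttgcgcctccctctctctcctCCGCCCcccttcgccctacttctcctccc
A GC box was present in 32.7% of all 32851 windows of this length, so these matches are common. Fbln1 and Fbln5 each have another annotated start in the table, and neither of those windows holds a GC box. For these genes the window shown is the one that holds a GC box, so its presence there is not a result. The windows shown hold 53.6% to 65.2% G and C, beside a median of 52.4% over all windows. The letters TATAAA on both strands, found in 12.4% of all windows, and a CArG box, the motif known to bind serum response factor and found in 1.47%, were in none of the 6 windows of these genes. The other elastic fibre genes are named without sequence.

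None of the 9 elastic fibre genes passed the threshold between the sorted populations. With limma, 857 of 13464 genes passed an adjusted p of 0.05 in either direction, 6.37% of those tested, with 1.98% higher and 4.38% lower in cells with both reporters. With 9 genes a count of 0 beside this background is not a result about the members, and 1 of the 9 had an unadjusted p under 0.05 against 2364 of all genes. Log2 fold changes of the members ran from -0.46 to 0.12 with a median of -0.20, beside a median of 0.02 over all genes tested, and 8 of 9 were below 0 against 6485 of 13464 (8 of 9 also after quantile normalization, and 7 of 9 after median centring). The 95% interval of the fold change, not adjusted for the number of genes, stayed within 2-fold either way for all 9. For 8 of the 9 genes the signal lay near the top of the range (percentiles 97.8 to 99.4 of tested genes), where differences can be compressed, which was not tested.

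**Figure D1:**
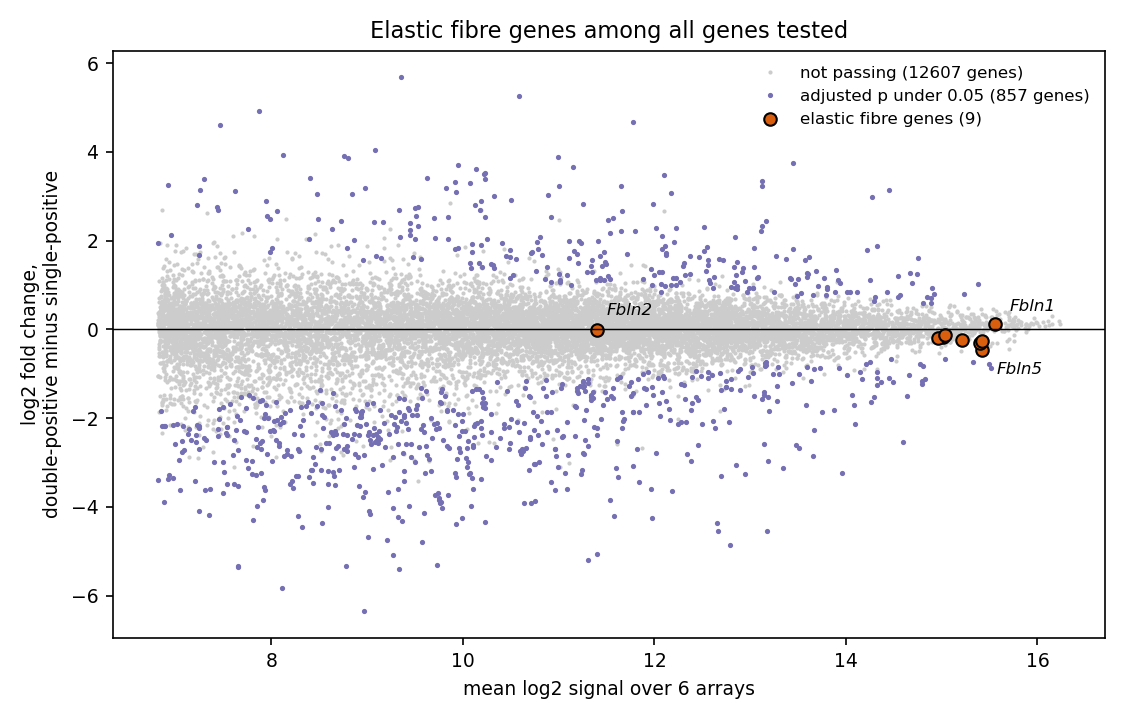
Log2 fold change, double-positive minus single-positive, of each tested gene (vertical axis) against its mean log2 signal over the 6 arrays (horizontal axis), with genes at an adjusted p under 0.05 in purple and the 9 elastic fibre genes in orange. Fbln2 lies in the middle of the signal range, the other 8 lie near its upper end, and all 9 lie between -0.46 and 0.12.

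Eln encodes tropoelastin, the core protein of the fibre. On its brighter probe set (1420855_at) the signal was 37722, 32070.5 and 35836.5 in the single-positive arrays and 28009, 30346 and 35199.7 in the double-positive arrays. The groups overlapped, since the third double-positive value lay above the lowest single-positive one. The means were 35210 ± 2878 and 31185 ± 3668 (SD, n = 3 each), a log2 fold change of -0.18 (SE 0.14, adjusted p = 0.619 in limma), with an interval from 0.709-fold to 1.10-fold. On the other probe set (1420854_at) the signal ran from 1879 to 4753 in single-positive and from 1334 to 4462 in double-positive arrays. Its log2 fold change of -0.29 (interval -1.36 to 0.78) allows a change of over 2-fold downward, so that this probe set bounds the change of Eln less tightly.

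Fbn2 encodes fibrillin-2, the fibrillin known chiefly from development. Its brighter probe set (1454830_at) gave 50969.8, 53176 and 40676 in the single-positive arrays. In the double-positive arrays it gave 38302, 35119 and 43993. Single-positive arrays 1 and 2 stood above all others, while the third lay inside the range of the double-positive arrays. This gave a log2 fold change of -0.30 (SE 0.15, adjusted p = 0.347 in limma), with an interval from 0.646-fold to 1.02-fold. The other probe set (1422831_at) had a log2 fold change of -0.06 and spread widely within the double-positive group, from 1642 to 7256.

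Mfap4 and Mfap5 encode microfibril-associated glycoproteins, the first of which binds elastin and the second fibrillin. Mfap4 had a single probe set (1424010_at), with 39245, 30587 and 35828 in the single-positive and 34869, 38537 and 24673 in the double-positive arrays. The lowest value of all came from double-positive array 3 and the next lowest from single-positive array 2, so the groups were interleaved. Mfap4 had a log2 fold change of -0.13 (SE 0.18, adjusted p = 0.815 in limma). Mfap5 gave 44176, 45008 and 35732 in single-positive and 39420.4, 33045 and 32421 in double-positive arrays on its brighter probe set (1449082_at). Its log2 fold change was -0.25 (SE 0.15, adjusted p = 0.450 in limma), and double-positive array 1 lay above the lowest single-positive value. The second probe set of Mfap5 (1418454_at) went slightly the other way, at 0.02 (interval -0.52 to 0.57), with 25237 and 24936 in double-positive arrays 1 and 2 above all single-positive values and 13769 in array 3 below them all.

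**Figure D2:**
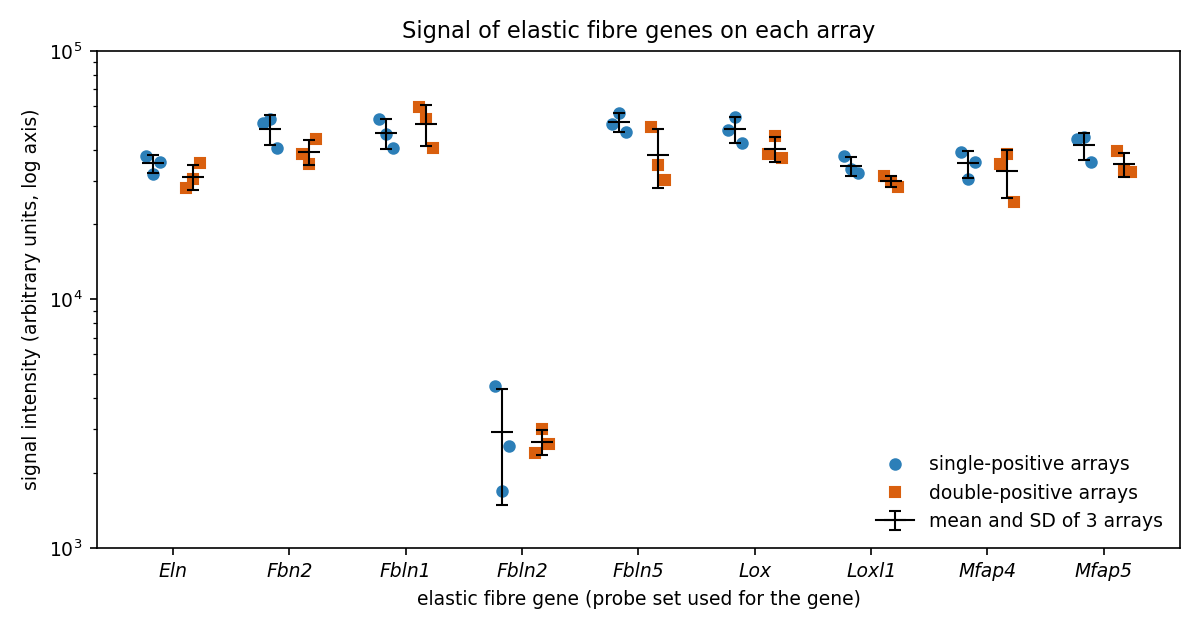
Signal intensity on a log axis (vertical) of the probe set used for each of the 9 elastic fibre genes (horizontal), with blue circles for the 3 single-positive and orange squares for the 3 double-positive arrays, and black marks for the mean and SD. The groups overlap for every gene except Loxl1, whose 3 double-positive values lie between 28352 and 31388, below all 3 single-positive ones.

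Among the fibulins, Fbln5, which tethers elastic fibres to cells and is needed for their assembly in mice, had the smallest p of the members. Its brighter probe set (1416164_at) gave 50949.7, 56298 and 47275 in the single-positive arrays. In the double-positive arrays it gave 49526, 34668 and 30105. Double-positive arrays 2 and 3 lay below all single-positive values, and array 1 lay among them. The mean signal was 51508 ± 4537 against 38099.5 ± 10154.8 (SD, n = 3 each), 1.35-fold lower in the double-positive arrays. The log2 fold change was -0.46 (SE 0.18, unadjusted p = 0.0283 and adjusted p = 0.207 in limma), with an interval from 0.548-fold to 0.959-fold. It did not pass, and in limma it passed in 2 of 17 alternatives. The adjusted p was 0.0340 after quantile normalization (log2 fold change -0.59) and 0.0417 without double-positive array 1 (-0.67). It was 0.558 with median centring (-0.41), 0.409 with array weights (-0.26) and 0.313 without double-positive array 3 (-0.31). The dimmer probe set (1446377_at) had -0.50 with an interval from -1.34 to 0.34 and did not pass.

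Fbln1, a fibulin found in elastic fibres and basement membranes, was the member with a fold change above 0. On its brightest probe set (1422540_at) it gave 53208, 46067 and 40613 in single-positive and 59340.4, 52909 and 40551 in double-positive arrays. Both the highest and the lowest of the 6 values came from the double-positive group. Its log2 fold change was 0.12 (SE 0.17, adjusted p = 0.804 in limma), and it was -0.02 after quantile normalization, so its direction depends on the scaling. The probe set 1451119_a_at had 0.08 and the dim probe set 1439688_at had 0.56 with an interval from -0.56 to 1.68, and neither passed. Fbln2, a fibulin that binds fibrillin and tropoelastin, gave 4485, 1687 and 2577 in single-positive and 2407, 2993 and 2607 in double-positive arrays on 1423407_a_at. All double-positive values lay inside the single-positive range, with a log2 fold change of -0.02 that was above 0 after quantile normalization or median centring (interval -0.80 to 0.76, adjusted p = 0.989 in limma), the widest interval of the 9 genes. Without single-positive array 1 it was 0.35. The second Fbln2 probe set (1438375_at) fell under the filter, at 57.7 or less on every array.

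Lox and Loxl1 encode lysyl oxidases, the copper enzymes that cross-link elastin, Lox acting on collagen as well. Lox gave 48094, 54265 and 42528 in single-positive and 38320.1, 45565 and 37083 in double-positive arrays on 1416121_at. Double-positive array 2 lay within the single-positive range and the other double-positive arrays lay below it. The log2 fold change was -0.26 (SE 0.14, adjusted p = 0.409 in limma). A second probe set of Lox (1448228_at) gave 9481.5, 6355 and 6609 against 4122, 5084 and 6059, so that the groups did not overlap. Its log2 fold change was -0.55 (SE 0.24, interval -1.10 to 0.0036), and it did not pass either (adjusted p = 0.370 in limma over all probe sets). The third Lox probe set (1437903_at) fell under the filter. Loxl1 gave 37765, 33294 and 32165 against 31388, 29737 and 28352 on 1451978_at. This was the only member gene whose groups did not overlap, 1 of 9 beside a background of 22.4% of genes in either direction and 11.9% lower. Loxl1 had a log2 fold change of -0.20 (SE 0.13, adjusted p = 0.515 in limma), and its other probe set (1436063_at) had an interval from -0.65 to 0.65.

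Over all 17 tested probe sets of the members, 0 passed in limma over 27022 probe sets, of which 3.42% passed, 1.01% as higher and 2.42% as lower. An unadjusted p under 0.05 was seen for 1 of the 17 and for 3684 of all probe sets. The interval stayed within 2-fold for 12 of the 17. Probe sets of a gene share its transcripts and are not replicates. Of the 8 tested probe sets other than the one used for a gene, 4 had a fold change below 0 (of Eln, Fbn2, Fbln5 and Lox). Those of Loxl1 and Mfap5 lay near 0, at 0.0016 and 0.02, and both of Fbln1 lay above 0, as did its brightest one.

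**Figure D3:**
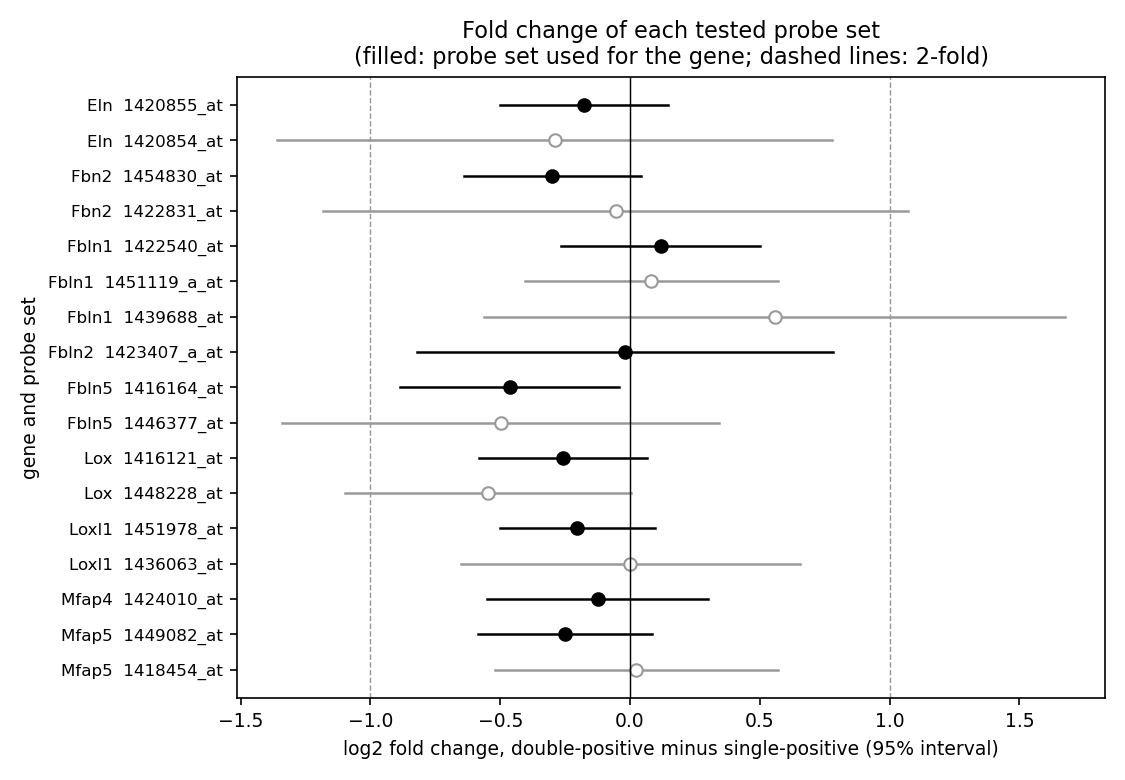
Log2 fold change, double-positive minus single-positive (horizontal), of each of the 17 tested probe sets (vertical), with its 95% interval as a bar, filled points for the probe set used for the gene and dashed lines at a 2-fold change. Intervals of the filled points stay between the dashed lines, and that of Fbln5 on 1416164_at lies below 0, from -0.88 to -0.04.

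Across arrays the members differed in where they were highest. Set against its own mean, a member was highest on single-positive array 1 for 4 genes, on single-positive array 2 for 4 and on double-positive array 1 for 1, Fbln1. Double-positive array 3 was the lowest array for 6 of the 9 members (Fbln1, Fbln5, Lox, Loxl1, Mfap4 and Mfap5). On that array the median deviation of the members was -0.23 on the log2 scale, beside -0.03 over all genes tested, and on single-positive array 1 it was 0.22 beside 0.02. Most genes tested are dimmer than the members, and whether genes as bright shift in the same way was not tested. The summed signal of the fibroblast markers was also lowest on double-positive array 3 (422432). That of the microfibril and fibre scaffold genes was lowest on single-positive array 3 (202906, against 213059 on double-positive array 3). Without double-positive array 3 no member passed, and Mfap4 went from -0.13 to 0.07. The spread over all 6 arrays was 0.55 (log2, median over the members), against 1.12 for all genes tested and 0.59 for those at or above the 90th percentile of signal.

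**Figure D4:**
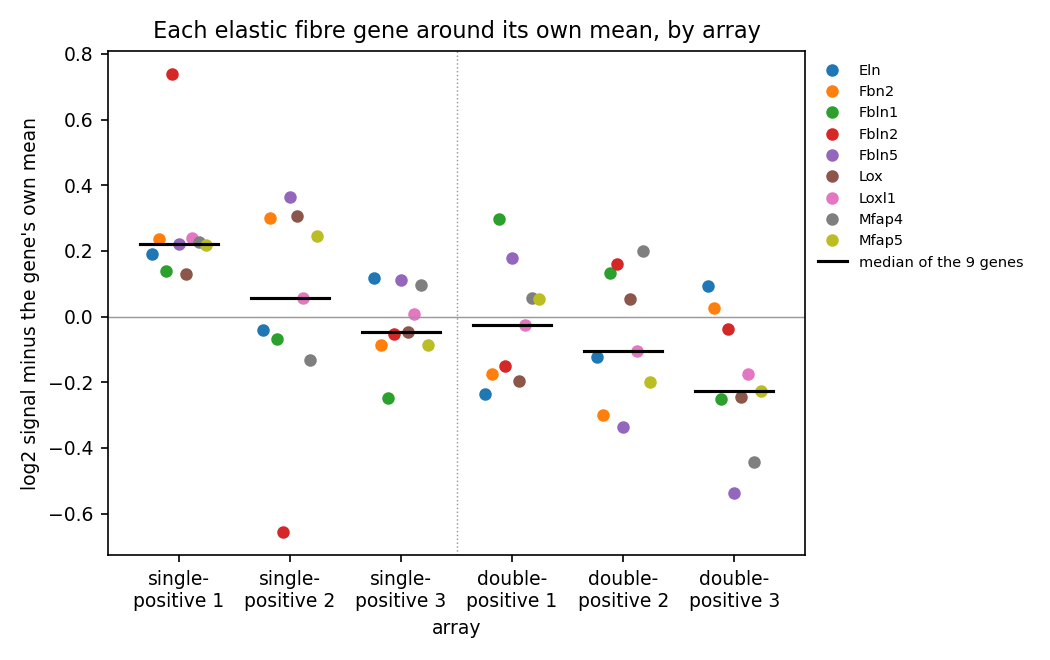
Log2 signal of each of the 9 elastic fibre genes minus its own mean over 6 arrays (vertical) on each array (horizontal), with the median of the 9 genes as a black line. The medians run from 0.22 on single-positive array 1 to -0.23 on double-positive array 3, and the genes of an array scatter around them.

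Likeness between genes was measured as the root mean square distance between log2 profiles over the 6 arrays, each centred on its own mean. The 5 tested genes nearest to Eln were Mapk14, Git2, Cct4, Tmem139 and Cd274, at distances of 0.04 to 0.06, where the median distance to Eln over all genes was 0.42. Nearest genes lie below that median by their choice. Profiles were not scaled, so genes of small spread lie close together whatever their pattern. Among the members Loxl1 was nearest to Eln, at 0.15, ranking 265 among 13463 genes. Loxl1 and Mfap5 were the closest pair of members, 0.10 apart, with Mfap5 ranking 92 among the 13463 genes near Loxl1. Fbln2 stood farthest from the rest, 0.36 from its nearest member, Mfap4.

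Other genes of elastic fibre biology were read from lists by role, of which 45 genes were tested. Efemp2, Hmcn2, Loxl2, Adamts17 and Serpina1a were not analysed here. In the double-positive arrays 2 of these were higher and 4 lower, 13.3% beside the background of 6.37%, and their median log2 fold change was 0.09. The lists were chosen with earlier results of these data known, so this share is not a result about elastic fibre biology. Among the other fibulins, 1 of 3 tested genes rose. Efemp1, which encodes fibulin-3, an extracellular glycoprotein of the short fibulins to which Fbln5 also belongs, gave 16934, 18866 and 14870.1 in single-positive and 43534, 37334 and 40432 in double-positive arrays. Every double-positive value was above every single-positive one by a wide gap. This difference was 1.26 on the log2 scale (SE 0.15, adjusted p = 0.000968 in limma, interval 0.93 to 1.60). Fbln7 and Hmcn1, the other fibulins tested, had 0.23 and -0.18 and did not pass.

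In the list of microfibril and fibre scaffold genes, 1 of 13 fell and 12 did not pass, with a median of -0.01. Ltbp2, a latent TGF-beta binding protein that associates with fibrillin microfibrils, gave 11619.9, 10889.5 and 13043 against 6467, 6698 and 8109. On the log2 scale it changed by -0.74 (SE 0.19, adjusted p = 0.0459 in limma), close to the threshold, and it missed it without any array except double-positive array 3. Emilin1, a glycoprotein between elastin and microfibrils, had 0.76 (SE 0.22, adjusted p = 0.0776 in limma), with groups that did not overlap. Ltbp1, another latent TGF-beta binding protein, had -0.78 (SE 0.35, adjusted p = 0.286 in limma). It passed without double-positive array 3 (-1.24, adjusted p = 0.0082 in limma, the lowest of 17 alternatives, which reached 0.629), and its fold change was -0.49 without double-positive array 1.

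Of 5 cross-linking genes tested none passed with limma, and 1 had an unadjusted p under 0.05. Atp7a, the copper transporter that supplies lysyl oxidases, gave 13884, 12189.6 and 13258 against 21735, 17913 and 20471. Its groups did not overlap, and with a log2 fold change of 0.61 (SE 0.16, adjusted p = 0.0532 in limma) it was just above the threshold. Loxl4, a lysyl oxidase, had 0.43, and Bmp1, a protease that activates pro-lysyl oxidase, had 0.22.

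Among ADAMTS-type partners of fibrillin 1 of 6 tested genes rose. Thsd4 (also called Adamtsl6), which promotes fibrillin microfibril assembly, gave 5320.5, 4365 and 2269.95 in single-positive and 9376, 8950.2 and 9768 in double-positive arrays. The double-positive values lay close together and above all others. Its change was 1.31 on the log2 scale (SE 0.30, adjusted p = 0.0280 in limma), and the call was lost without any array except single-positive array 1. Adamtsl5 and Adamts6 had 0.96 and -1.04 and did not pass.

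In the list of the elastin receptor and integrins, 1 of 9 fell, with a median of -0.53. Itgb3, the integrin beta-3 subunit, gave 9335, 6644 and 6092 against 681, 889 and 784, a log2 fold change of -3.17 (SE 0.28, adjusted p = 0.000235 in limma). Itga8, the alpha-8 subunit found on smooth muscle, had -2.02 (SE 0.79, adjusted p = 0.203 in limma) with overlapping groups, and -2.88 without double-positive array 3, where it passed (adjusted p = 0.0311 in limma, within a range of 0.0199 to 0.477 over the alternatives). Without double-positive array 1 it had -0.93 and did not pass. Itgb1, the shared beta-1 subunit, had -0.53 and did not pass.

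Among elastases and their inhibitors 2 of 9 tested genes fell. Ctss (cathepsin S, a protease able to cut elastin) gave 13987, 12389 and 10094 against 3455, 1846 and 3249, a log2 fold change of -2.12 (SE 0.28, adjusted p = 0.0016 in limma). Mmp9, a gelatinase with activity on elastin, had -1.77 (SE 0.35, adjusted p = 0.0133 in limma) and missed the threshold without single-positive array 1 or 2. Ctsk (cathepsin K) had 0.60 and did not pass, and Mmp12 and Elane, elastases of macrophages and neutrophils, were under the filter.

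**Figure D5:**
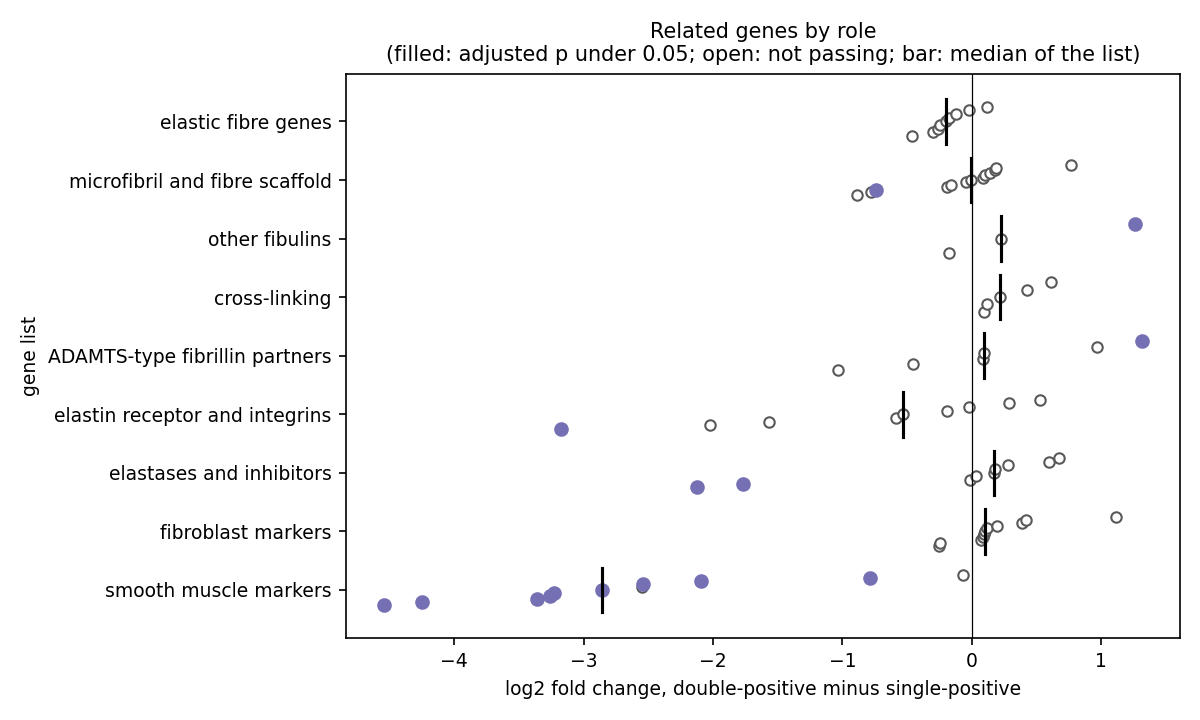
Log2 fold change, double-positive minus single-positive (horizontal), of tested genes in each list (vertical), filled where the adjusted p was under 0.05, with a bar at the median of the list. The 9 elastic fibre genes sit close to 0 with a median of -0.20, while the smooth muscle markers have a median of -2.86.

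Markers of other cells moved with the groups, and their part in these results was not tested. Of the leukocyte markers Cd3e was under the filter, and of 11 tested 10 were lower in the double-positive arrays. The summed signals of the 11 were 87894 to 123705 in single-positive and 12007 to 19787 in double-positive arrays. These values stand beside Ctss, Mmp9 and Itgb3, which cells of the blood lineage also make. Lower calls were also made for 7 of 12 endothelium, 9 of 14 urothelium, 4 of 7 nerve and Schwann cell, 1 of 3 mesothelium and 2 of 7 pericyte markers, and no marker of these lists was called higher. Their summed signals in single-positive and double-positive arrays were 39719.7 to 48561 and 7013 to 11534 for endothelium, and 29336 to 48992 and 5290.4 to 9185 for urothelium. For nerve and Schwann cells the sums were 10141 to 13515 and 1271 to 2436, for mesothelium 24706.5 to 36768 and 1681 to 13723, and for pericytes 57323 to 62167 and 26498 to 47078. In the pericyte list 1 marker, Pdgfrb, had a log2 fold change above 0 (0.49), as did 1 of the nerve list, Sox10 (0.25), and neither passed. Most of the mesothelium sum came from Cpe, the gene called lower, while Wt1 and Upk3b had log2 fold changes of 0.22 and 0.12 and did not pass. Tubb3 of the nerve list and Msln and Lrrn4 of the mesothelium list were under the filter.

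Fibroblasts also make elastic fibres, and their markers were read beside the members. None of the 11 fibroblast markers tested passed with limma, 3 had an unadjusted p under 0.05, and the median log2 fold change was 0.10. Of the markers 9 of 11 were above 0, where 8 of the 9 members were below 0. Over all genes tested 6979 of 13464 were above 0. The summed signal ranged from 427855 to 519786 in single-positive and from 422432 to 606531 in double-positive arrays, so the groups overlapped. Double-positive arrays 1 and 2 had the highest sums, 606531 and 564099, and array 3 the lowest. The median deviation of the elastic fibre genes was below 0 on all 3 of these arrays, at -0.03, -0.10 and -0.23. A sum of linear signals and a median deviation on the log2 scale are unlike measures, and both were lowest on array 3. Whether the share of fibroblasts bears on the members was not tested. The 3 markers of smallest p were Thy1, a surface protein of fibroblasts, Col1a1, and Pdgfra, a receptor of fibroblasts. Thy1 had 1.12 (SE 0.31, adjusted p = 0.0665 in limma), Col1a1 had 0.39 (SE 0.13) and Pdgfra had 0.41 (SE 0.16), and none passed. The 2 markers below 0 were Dpt, at -0.24, and Cd34, at -0.25.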

How the data were processed

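RNA of 6 sorted samples was measured on Affymetrix MOE430 arrays. Per the labels' protocols, it was amplified in 2 rounds, which starts from the 3′ end of transcripts and can weaken probe sets far from it. What the authors deposited is a linear intensity for each probe set. The submitters' processing notes name GCOS, with algorithm and version not given in the sources used here. With 2% of values trimmed from both ends, each array had a mean of 1500.01, so the arrays had been scaled to a common level.

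Signals were taken as log2(signal + 25.042), where the offset is the 20th percentile over all arrays. Each gene was represented by its brightest probe set of 1 symbol, if that lay above the 40th percentile of mean signals (6.82). Platform symbols were used as given, no genome build is named with the array, and promoter positions are those of RefSeq. Tests used limma 3.58.1 (R 4.3.3; lmFit, eBayes with trend), two-sided, with Benjamini-Hochberg adjustment at 0.05 over all genes or probe sets tested. The procedure was run on simulated data, which does not show that it would detect a 2-fold change in these data. The number of arrays limits the precision. No pair of arrays shared identical values for more than 13 probe sets. Named genes were all members, the 3 genes of smallest p and all passing genes of each related list, and the 5 genes nearest to Eln. Genes and markers beyond these were named after their values were seen. Members and lists were chosen with earlier results of these data known. Alternatives changed the scaling, offset, filter, probe set, variance trend and array weights, blocked on the replicate number, or omitted each array.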

Additional observations from a re-analysis of the deposited data

How the results depend on the processing

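The number of elastic fibre genes that passed was 0 in all settings other than quantile normalization and the fit without double-positive array 1, where it was 1, Fbln5, and leaving out each array gave 0 to 1. For their probe sets it was 0 throughout. Over 17 alternatives Eln, Fbn2, Lox, Loxl1 and Mfap5 kept a fold change below 0 and did not pass, with adjusted p no lower than 0.0566. Fold changes near 0 changed sign. Fbln1 had -0.025 with quantile normalization and -0.00081 to 0.27 when 1 array was left out. Fbln2 had 0.012 with quantile normalization, 0.036 with median centring and -0.35 to 0.35 on leaving out 1 array. Leaving out each array also gave -0.26 to 0.065 for Mfap4, -0.30 to 0.68 for Fbln7, -0.75 to 0.33 for Hmcn1 and -0.032 to 0.45 for Bmp1. For dimmer probe sets it gave -0.74 to 0.13 for Eln, -0.67 to 0.39 for Fbn2, -0.13 to 0.16 for Loxl1, -0.065 to 0.28 for Fbln1 (1451119_a_at) and -0.12 to 0.31 for Mfap5, which had -0.023 with quantile normalization. The cause was not tested.

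All genes that passed numbered 463 to 1088 without 1 array, with 160 to 351 higher and 300 to 737 lower. Array weights gave 1345, with 435 higher and 910 lower, and 12 related genes, 6 of them higher. Related genes that passed numbered 3 to 7 without 1 array, with 1 to 2 higher and 2 to 6 lower. Only 1 related gene was higher with median centring, with the mean over probe sets or with no variance trend, since Thsd4 missed (adjusted p = 0.0768, 0.170 and 0.0864). Ltbp2 also missed with median centring, no filter and no variance trend (adjusted p = 0.212, 0.0569 and 0.137). Efemp1, Itgb3 and Ctss passed in all 17 alternatives. The replicate numbers were not shown to pair the arrays. Correlations of deviations were 0.19, 0.05 and 0.02 for numbers 1, 2 and 3, and -0.125 to 0.093 between arrays of unlike number. With the replicate number as a block 1014 genes passed, 0 of them elastic fibre genes and 9 related genes, Atp7a (adjusted p = 0.0399) and Itga8 (adjusted p = 0.0199) among them. Fbln5 had an adjusted p of 0.0793 in that limma fit.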
